A study of Mus musculus with 18 samples.

Results

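Serum response factor, encoded by Srf, and the 6 genes of its best known cofactor families were followed across 18 mouse hearts. The cofactor genes were Myocd (myocardin), Mkl1 and Mkl2 (now named Mrtfa and Mrtfb), and the ternary complex factors Elk1, Elk3 and Elk4. All probe sets that the platform annotation gives to these 7 genes were taken, under older or newer symbols. This gave 19 of the 45037 probe sets that are not array controls: 2 for Srf, 2 for Myocd, 1 for Mrtfa, 3 for Mrtfb, 3 for Elk1, 4 for Elk3 and 4 for Elk4. Of these, 15 of 19 passed the filter on low signal and were tested among 27022 probe sets. The other 4, which were 2 for Mrtfb, 1 for Elk1 and 1 for Elk4, are given as levels only.

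The study asked how deletion of Srf in adult mice changes the ventricular transcriptome at baseline and under phenylephrine (PE), which stimulates alpha-1 adrenergic receptors and drives hypertrophic growth. Affymetrix arrays were hybridised with ventricular RNA of 10-week-old male mice, 1 heart per array, of a strain the labels write as CR7BL6. Every mouse, controls included, had tamoxifen by intraperitoneal injection, 0.7 mg on each of 3 days, and the controls were littermates described as SRF-flex2neo. The groups without PE were control (n = 2) and SRFHKO mutant (n = 4) hearts at day 8, and control (n = 3) and SRFHKO (n = 3) hearts at day 25. The groups with PE were control (n = 3) and SRFHKO (n = 3) hearts at day 25, in which minipumps had delivered 80 mg/kg/day from day 10. The labels used here do not name the promoter of the Cre recombinase; as background, published descriptions of the SRFHKO line place it under the cardiomyocyte promoter of alpha myosin heavy chain, in which case other cells of the ventricle keep Srf.

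As background, SRF is a MADS-box protein that binds a DNA element called the CArG box as a dimer. Which genes it drives depends on its partners, which compete for the same surface. Myocardin is a constitutively nuclear coactivator made mainly in cardiac and smooth muscle. Its relatives MRTF-A and MRTF-B are held in the cytoplasm by monomeric actin and enter the nucleus when actin polymerises. The ternary complex factors are ETS proteins that sit beside the CArG box and are switched on when MAP kinases phosphorylate them, which starts immediate early genes such as Fos and Egr1.

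The Srf gene carries the element that its own product binds, which is why its promoter is shown. The 150 bases before the annotated Srf start, from RefSeq on GRCm38.p6, lie at chr17:46556163-46556312 on the minus strand. They are written 5′ to 3′ with the 2 CArG boxes in capitals.
Srf promoter: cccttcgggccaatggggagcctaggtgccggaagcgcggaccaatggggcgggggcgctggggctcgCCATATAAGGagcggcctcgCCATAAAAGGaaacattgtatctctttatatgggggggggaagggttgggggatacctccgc
The CArG boxes CCATATAAGG and CCATAAAAGG span bases -82 to -73 and -62 to -53 relative to the start. An ETS core, CCGGAA, lies upstream of them at -122 to -117, and a GC box, GGGCGG, at -103 to -98; no match overlaps another. Windows of 300 bases (250 before to 50 after each start) were searched on both strands for all genes of the table. A CArG box was present in 1.63% of 32851 windows, CCGGAA in 14.9% and GGGCGG in 35.7%. Among the 7 genes, 6 were in the table, and Srf was the only one of those 6 with a CArG box in its windows; Myocd was not in the table. An exact CCGGAA was also found in windows of Mrtfb and Elk4. These matches describe the sequence and are not evidence of binding in these hearts.

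All levels below are scaled intensities on a linear scale, each array having been brought to the same 2% trimmed mean. Differences are on the log2(scaled intensity + 2) scale with their standard error, which understates changes of dim probe sets. A difference was called where limma's adjusted p, by Benjamini-Hochberg over the 27022 probe sets, was under 0.05. Arrays correlated with each other at 0.916 to 0.968, and no 2 arrays were identical. Before scaling the trimmed means ran from 110.2 to 147.7 at day 8 and from 46.6 to 85.4 at day 25, so day and array brightness cannot be told apart. The cardiomyocyte markers Myh6 and Tnnt2, which encode alpha myosin heavy chain and cardiac troponin T, were bright on all 18 arrays, with lowest levels of 9167 and 9015. None of the 6 skeletal muscle markers passed the filter. The titles call the replicates biological, and nothing else says how the hearts were batched.

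Myocd was the only member gene with a called difference. The calls fell at day 25 without PE, where 2 of 15 probe sets were called, both of them Myocd and both higher in SRFHKO, against 2.18% of all probe sets called and 1.25% called higher. None of the 15 was called at day 8 (background 0.17%), at day 25 with PE (0.929%), for PE in control hearts (0.0259%), for PE in SRFHKO hearts (0.185%), for the interaction of genotype and PE (0.0037%) or for that of genotype and day (0.0407%), all by limma. At an unadjusted p under 0.05 the members counted 0 at day 8 (11.8% of all probe sets), 3 at day 25 without PE (17.4%) and 2 with PE (12.8%). The same counts were 3 for PE in controls (10.1%), 4 for PE in SRFHKO (9.81%), 3 for the interaction with PE (7.4%) and 4 for the interaction with day (12.3%). Probe sets of 1 gene are not independent of each other.

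**Figure D1:**
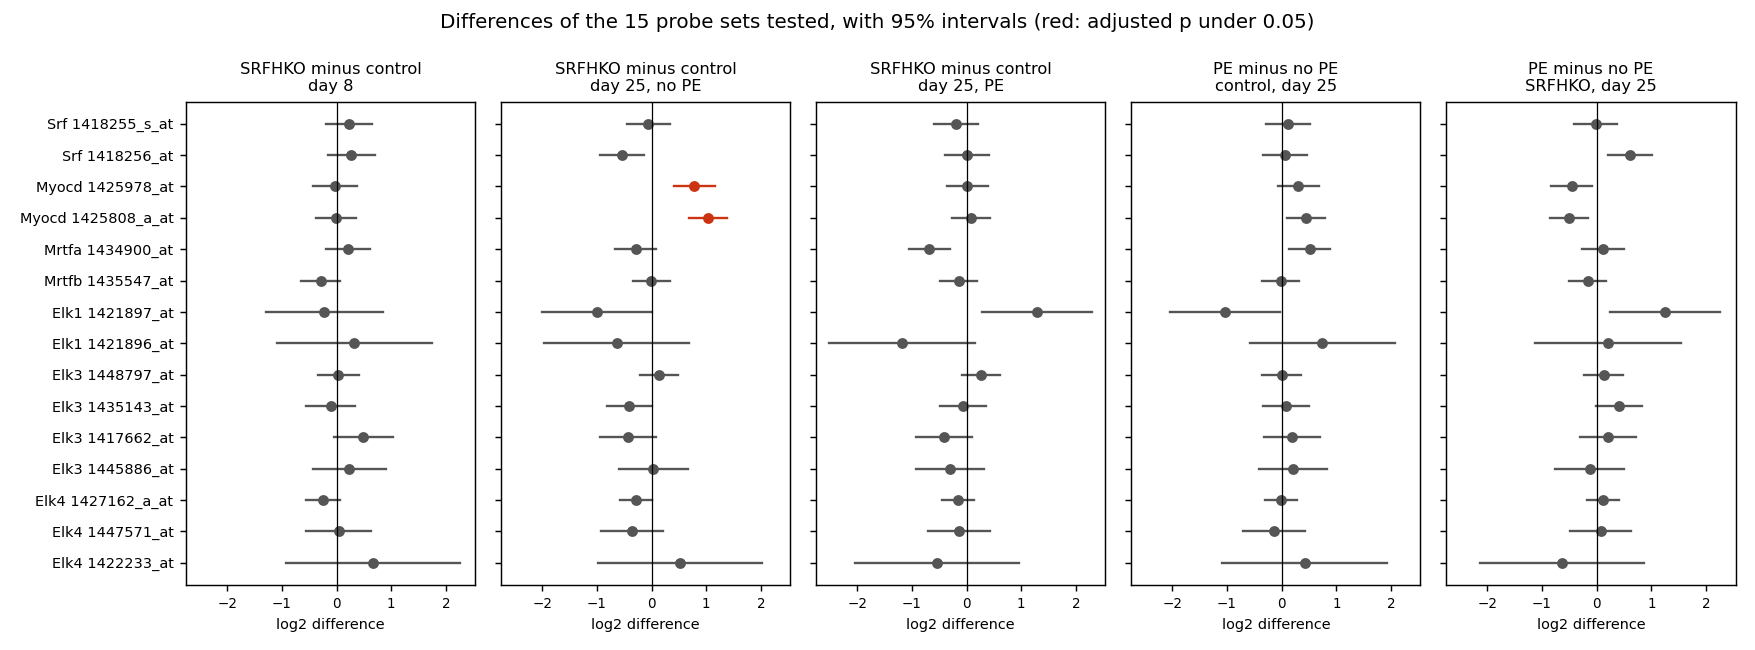
Log2 differences (x axis) of the 15 tested probe sets of Srf and its cofactors in 5 comparisons, as points with 95% confidence intervals from the limma fit; red marks an adjusted p under 0.05. The 2 Myocd probe sets at day 25 without PE, at 0.78 and 1.03, are the red points, and the intervals are widest for the dim Elk1 and Elk4 probe sets.

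Groups that do not overlap were counted as a plain description. At day 25 without PE the SRFHKO hearts lay wholly below the controls for 5 of 15 probe sets (11.6% of all probe sets) and wholly above for 2 of 15 (9.66%). The 5 were 1 each of Srf, Mrtfa and Elk4 and 2 of Elk3, and none of them passed the test. With PE the counts were 1 below (9.76%) and 1 above (8.41%). PE-treated controls lay wholly above untreated controls for 2 probe sets (5.81%) and below for 1 (8.17%), and PE-treated SRFHKO hearts above untreated ones for 3 (7.31%) and below for 1 (8.5%). At day 8 all 15 overlapped. The median difference of the 15 at day 25 without PE was -0.29, against -0.04 over all probe sets, and it was 0.04 against 0.04 at day 8. With PE the median was -0.15 against -0.01.

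Srf itself was read by 2 probe sets, and neither was called in any of the 7 comparisons. Whether they lie within the deleted part of the gene is not known from the files, and their levels therefore cannot serve as a check of genotype. Probe set 1418255_s_at read 171.6 and 253.4 in controls at day 8 and 253.4, 295.0, 245.0 and 198.6 in SRFHKO hearts. At day 25 it read 199.7, 163.1 and 169.0 in controls and 176.0, 141.0 and 196.6 in SRFHKO. With PE it read 208.8, 233.1 and 144.7 in controls and 161.8, 161.3 and 179.4 in SRFHKO. The genotypes overlapped at each of these points. On this probe set the order of the group means ran from SRFHKO at day 8, the highest, through control day 8, control PE, control day 25 and SRFHKO day 25 to SRFHKO PE, and every neighbouring pair in that order overlapped.

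The other Srf probe set, 1418256_at, separated the days. It read 130.2 and 97.6 in controls and 121.8, 135.1, 141.6 and 147.7 in SRFHKO hearts at day 8, where the genotypes overlapped. At day 25 controls read 66.0, 60.9 and 67.5 and SRFHKO hearts 55.6, 30.5 and 49.4. All 3 mutant hearts were below all 3 controls, 1 of them far below. The difference was -0.54 ± 0.19 (95% interval -0.94 to -0.14, adjusted p = 0.148), so it did not pass. With PE the levels were 71.4, 68.7 and 62.0 in controls and 60.4, 65.3 and 79.7 in SRFHKO, which overlapped, and the genotype difference was 0.02 ± 0.19. PE-treated SRFHKO hearts lay above all untreated ones, by 0.61 ± 0.19 with an adjusted p of 0.238. Leaving out 1 heart at a time kept the SRFHKO difference at day 25 between -0.71 and -0.29 with no call.

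The group means of 1418256_at ran from SRFHKO day 8 through control day 8, SRFHKO PE, control PE and control day 25 to SRFHKO day 25. Neighbours overlapped except control day 8 with SRFHKO PE, and control day 25 with SRFHKO day 25. All 6 hearts of day 8 exceeded all 12 of day 25 on 1418256_at, at 97.6 or more against 79.7 or less. The contribution of array brightness, which moved with day, was not tested. The interaction of genotype and day was -0.81 ± 0.28 (adjusted p = 0.242) on 1418256_at and -0.29 ± 0.28 (adjusted p = 0.71) on 1418255_s_at. Over the 18 arrays the log2 levels of the 2 probe sets correlated at r = 0.66, and after subtracting the group means at r = 0.19. The first of these values includes the difference between days that both probe sets share.

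**Figure D2:**
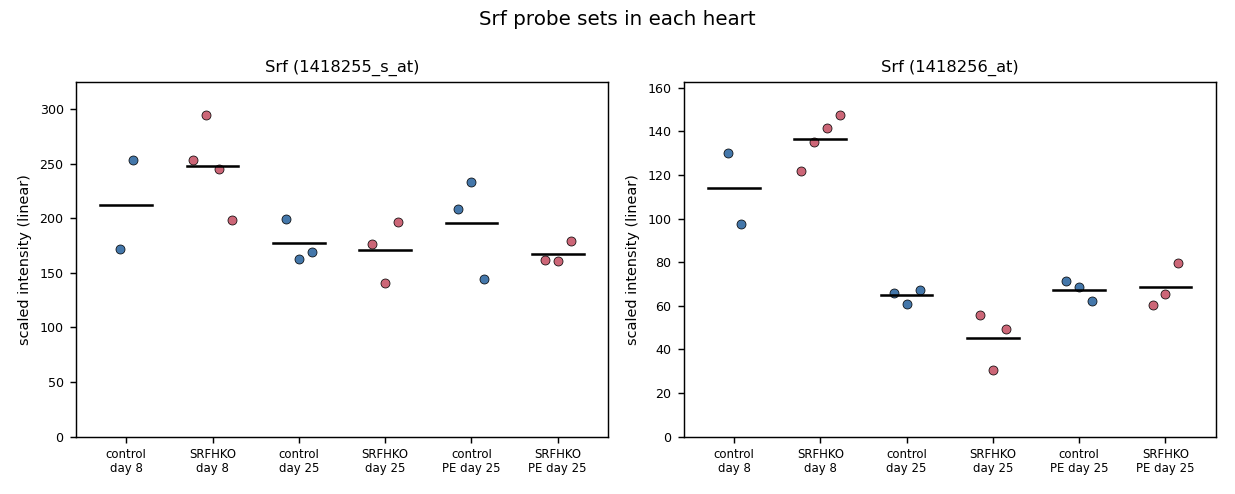
Scaled intensity (linear, y axis from 0) of the 2 Srf probe sets in each of the 18 hearts, by group on the x axis; points are hearts (blue control, red SRFHKO) and bars are group means. On 1418256_at the 3 SRFHKO hearts of day 25 without PE, at 55.6 or less, lie below all other hearts, whereas on 1418255_s_at the genotypes overlap in every pair of groups.

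Myocd, the muscle-restricted coactivator of SRF, rose in SRFHKO hearts at day 25 without PE, to 2.04 and 1.72 times the control level on its 2 probe sets, and did not separate the genotypes at day 8. On 1425808_a_at the day 8 controls read 79.9 and 75.4 and the SRFHKO hearts 73.7, 68.7, 86.9 and 79.4. At day 25 without PE the controls read 85.1, 74.3 and 82.6 and the SRFHKO hearts 129.9, 172.5 and 204.2. The 3 mutant hearts were above all 15 other arrays of the series, of which the highest read 127.4. The difference was 1.03 ± 0.17 (95% interval 0.68 to 1.37, adjusted p = 0.00431 by limma, higher in 3 of 3 hearts). At day 8 it was -0.01 ± 0.18 (adjusted p = 0.991).

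The second Myocd probe set, 1425978_at, gave the same picture with more spread. Its day 8 levels were 452.2 and 549.0 in controls and 467.2, 465.6, 516.7 and 502.7 in SRFHKO. At day 25 without PE the controls read 718.1, 593.5 and 599.3, and the SRFHKO hearts 806.3, 1049.5 and 1530. The 3 SRFHKO hearts lay above the 3 controls, but the lowest of them fell within the range of the PE-treated groups. The difference was 0.78 ± 0.18 (95% interval 0.40 to 1.15, adjusted p = 0.0296), and at day 8 it was -0.03 ± 0.19 (adjusted p = 0.978). The 2 probe sets correlated at r = 0.92 over the 18 arrays, and at r = 0.71 after subtracting the group means.

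The call on 1425978_at rested on a narrow margin and that on 1425808_a_at less so. Without control replicate 2 or 3, or SRFHKO replicate 2 or 3, of day 25, the difference on 1425978_at was 0.73, 0.74, 0.81 or 0.53 and its adjusted p 0.0722, 0.0951, 0.0764 or 0.143. On 1425808_a_at all 6 such fits stayed past the threshold, with differences of 0.88 to 1.20 and adjusted p of 0.00158 to 0.0315. With the 6 hearts of this comparison fitted alone, the adjusted p was 0.0558 on 1425808_a_at and 0.120 on 1425978_at.

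A pair of array measures moved with genotype in the same hearts. The 2% trimmed mean was 46.6 to 68.5 in day 25 controls and 71.2 to 83.5 in SRFHKO, and the Gapdh 3'/5' signal ratio, a sign of RNA integrity and labelling, was 0.868 to 0.945 in controls and 0.820 to 0.835 in SRFHKO. With brightness as a covariate the Myocd differences were 1.13 ± 0.21 (adjusted p = 0.0323) on 1425808_a_at and 0.74 ± 0.23 (adjusted p = 0.218) on 1425978_at. With the Gapdh ratio as a covariate, a setting chosen after seeing the data, they were 1.12 ± 0.25 (adjusted p = 0.154) and 0.71 ± 0.27 (adjusted p = 0.483). The differences kept their sign at 0.71 to 1.13, and the number of calls fell to 1 and 0; the part of brightness and RNA quality in the rise was not tested further.

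Myocd is made by smooth muscle as well as cardiomyocytes, so smooth muscle markers were set beside it. In bulk ventricle, fewer cells of a type and less RNA per cell cannot be told apart. None of the 7 smooth muscle markers that passed the filter, of 8 listed, was called at day 25 without PE. Their median difference was -0.28, against -0.05 over 12556 genes read from 1 probe set each. All 7 differences were negative, from -0.51 to -0.10, and 1 had an unadjusted p under 0.05 (18.2% of all genes read). The summed level of all 8 ran from 5645 to 7598 in controls and from 4526 to 7013 in SRFHKO, with overlap. Over the 18 arrays Des read 1889 to 3937 and Acta2 1007 to 3297, against 16.6 to 153.9 for Cnn1. The sum therefore follows mainly Des and Acta2 and is not a measure of smooth muscle content. The list also overlaps that of the SRF targets of the myocardin type, described below. Its differences after Srf deletion therefore cannot be read as differences in smooth muscle cells. The 8 cardiomyocyte markers summed to 78113 to 86633 in controls and 63763 to 75963 in SRFHKO, without overlap. Of these 8, 0 were called, and 4 had an unadjusted p under 0.05, against the same 18.2% of all genes read. Cldn5, which encodes a tight junction protein of endothelial cells, fell by 0.81 (± 0.20, adjusted p = 0.0349). It was the only one called of 8 endothelial markers, against 2.22% of all genes read. Of these 8, 3 had an unadjusted p under 0.05, against the same 18.2%. The 8 endothelial markers summed to 2104 to 2746 in controls and 1847 to 2018 in SRFHKO. Of the 3 lung markers tested, 1 was called, against the same 2.22%. This was Napsa, an aspartic peptidase of lung epithelium, which was lower (adjusted p = 0.0179), on a probe set below the filter limit on 4 of the 18 arrays. The part of cell composition in the Myocd difference was not tested.

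In PE-treated hearts Myocd did not separate the genotypes. The levels on 1425808_a_at were 114.5, 97.0 and 119.3 in PE-treated controls and 127.4, 122.8 and 100.8 in PE-treated SRFHKO hearts, a difference of 0.08 ± 0.17 (95% interval -0.26 to 0.43, adjusted p = 0.894). On 1425978_at they were 864.3, 805.4 and 691.7 in controls and 986.3, 737.8 and 683.5 in SRFHKO, a difference of 0.02 ± 0.18 (95% interval -0.36 to 0.39, adjusted p = 0.984). The genotypes overlapped on both probe sets.

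The PE differences of Myocd had opposite signs in the 2 genotypes, and neither passed the test. On 1425808_a_at the 3 PE-treated controls lay above the 3 untreated ones (0.44 ± 0.17, adjusted p = 0.372), and the 3 PE-treated SRFHKO hearts below the 3 untreated ones (-0.51 ± 0.17, adjusted p = 0.263). On 1425978_at the 2 effects were 0.30 ± 0.18 (adjusted p = 0.596) and -0.46 ± 0.18 (adjusted p = 0.389), with overlap. The test of the difference between them, the interaction of genotype and PE, gave -0.94 ± 0.23 (adjusted p = 0.448) and -0.76 ± 0.25 (adjusted p = 0.577). The interaction of genotype and day was 1.04 ± 0.24 (adjusted p = 0.0985) and 0.81 ± 0.26 (adjusted p = 0.209). A difference in the genotype effect between days, or between PE and no PE, was therefore not shown at the threshold over all probe sets.

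On both probe sets the group means had the same order. SRFHKO at day 25 without PE was highest, followed by SRFHKO PE, control PE, control day 25, control day 8 and SRFHKO day 8. On 1425808_a_at the first neighbours in this order, SRFHKO day 25 and SRFHKO PE, did not overlap, nor did control PE and control day 25; the other neighbours overlapped. On 1425978_at the neighbours overlapped except control day 25 and control day 8, at 593.5 or more against 549.0 or less.

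**Figure D3:**
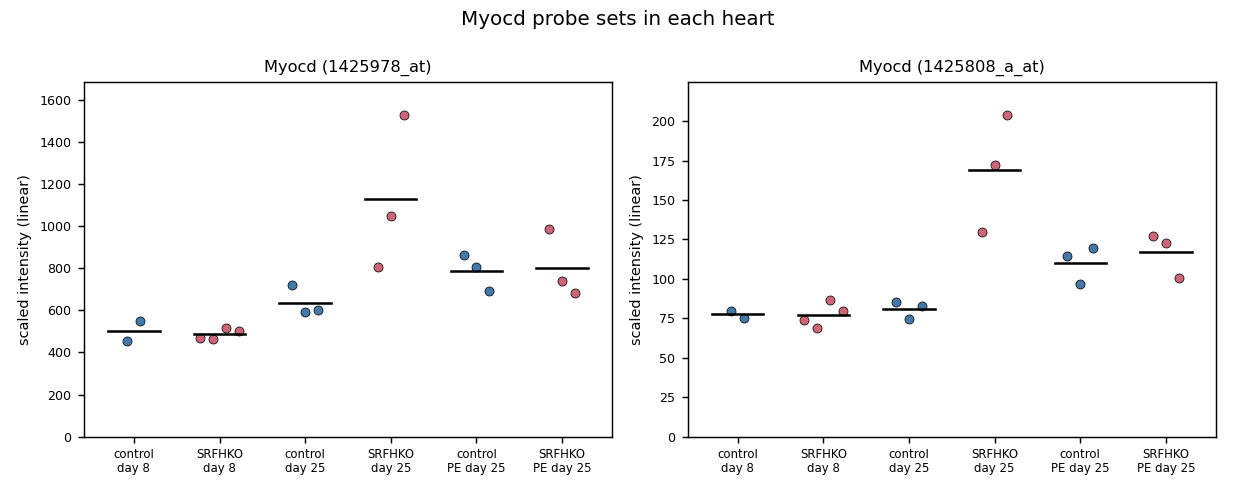
Scaled intensity (linear, y axis from 0) of the 2 Myocd probe sets in each of the 18 hearts, by group on the x axis; points are hearts (blue control, red SRFHKO) and bars are group means. The SRFHKO hearts of day 25 without PE stand highest on both, at 129.9 to 204.2 on 1425808_a_at and 806.3 to 1530 on 1425978_at, with the lowest of the latter inside the range of the PE groups.

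Mrtfa (Mkl1), which encodes the actin-regulated coactivator MRTF-A, was read by 1 probe set, 1434900_at. Its levels at day 8 were 82.9 and 67.2 in controls and 70.8, 75.6, 100.1 and 104.9 in SRFHKO, with overlap. At day 25 without PE they were 67.2, 54.5 and 59.4 in controls and 50.3, 52.7 and 44.1 in SRFHKO. The mutant hearts were lower in 3 of 3, by a small margin, with a difference of -0.29 ± 0.18 (adjusted p = 0.430). With PE the levels were 77.5, 88.8 and 93.9 in controls and 46.3, 54.5 and 59.3 in SRFHKO. Here the 2 groups were well apart, with a difference of -0.68 ± 0.18 (95% interval -1.06 to -0.30, adjusted p = 0.0823). This was the smallest adjusted p of any member in that comparison, and it missed the threshold. Array brightness also separated the genotypes with PE, with trimmed means of 52.5 to 75.3 in controls and 75.9 to 85.4 in SRFHKO. The Gapdh 3'/5' ratio overlapped, at 0.846 to 0.900 and 0.824 to 0.863. The part of brightness in this difference was not tested further.

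Among controls, PE-treated hearts lay above untreated ones on 1434900_at (0.51 ± 0.18, adjusted p = 0.349), and among SRFHKO hearts the groups overlapped (0.11 ± 0.18, adjusted p = 0.902). The interaction was -0.39 ± 0.25 (adjusted p = 0.758). Over the other settings tried, the genotype difference with PE ranged from -0.70 to -0.38 and its adjusted p from 0.0547 to 0.383, with no call. The order of the group means was SRFHKO day 8, control PE, control day 8, control day 25, SRFHKO PE and SRFHKO day 25. Neighbouring groups in that order overlapped, except control day 8 and control day 25, which met at 67.2.

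Mrtfb (Mkl2), which encodes MRTF-B, varied little on the probe set that passed the filter. Probe set 1435547_at read 215.7 to 385.9 over the 18 arrays, with a coefficient of variation of 16%. In day 25 controls it read 304.4, 337.9 and 338.5 and in SRFHKO 385.9, 285.1 and 315.0, a difference of -0.0023 ± 0.16 (95% interval -0.34 to 0.34, adjusted p = 0.996). In the other 4 two-group comparisons its differences ran from -0.29 (day 8) to -0.02 (PE in controls), and none was called. The other Mrtfb probe sets, 1445134_at and 1428028_at, lay below the filter limit of 9.94 on 10 and 12 of the 18 arrays and were not tested. Their highest levels were 29.2 and 22.6.

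The ternary complex factors gave no call on any of the 9 tested probe sets of Elk1, Elk3 and Elk4 in any of the 7 comparisons. Elk3, an ETS factor that can repress SRF targets until it is phosphorylated, was read by 4 probe sets. On 1435143_at, the hearts of day 25 without PE read 76.4, 85.6 and 78.1 in controls and 59.1, 63.6 and 57.3 in SRFHKO, without overlap (-0.40 ± 0.20, adjusted p = 0.306). On 1417662_at the controls read 59.6, 46.2 and 46.8 and the SRFHKO hearts 27.7, 42.1 and 43.0, again without overlap (-0.43 ± 0.24, adjusted p = 0.374). The other pair went the other way: 1448797_at differed by 0.13 ± 0.17 and 1445886_at by 0.03 ± 0.30, both with overlap. The Elk3 probe sets thus disagreed in sign, and the log2 levels of pairs of them correlated at r = -0.17 to 0.54 over the 18 arrays. On 1448797_at the 6 hearts of day 8 read 200.1 to 248.2 and the 12 of day 25 read 127.3 to 230.5.

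Elk4, the ternary complex factor also known as SAP-1, was read most clearly by 1427162_a_at, whose coefficient of variation was 13.6% over the 18 arrays. At day 25 without PE the controls read 427.6, 379.0 and 362.3 and the SRFHKO hearts 358.4, 322.0 and 278.0. The mutants lay just below the controls, with a difference of -0.29 ± 0.14 (95% interval -0.59 to 0.01, adjusted p = 0.300). With PE the levels were 396.5, 378.5 and 380.6 in controls and 319.9, 336.5 and 381.4 in SRFHKO, with overlap (-0.16 ± 0.14, adjusted p = 0.711). At day 8 the difference was -0.25 ± 0.15 (adjusted p = 0.564). Probe sets 1447571_at and 1422233_at had differences of -0.36 ± 0.27 and 0.52 ± 0.72 at day 25 without PE, and 1450549_s_at lay below the filter limit on 16 of the 18 arrays.

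Elk1, the founding ternary complex factor, was dim throughout. Probe set 1446390_at was below the filter limit on all 18 arrays, with a highest level of 5.33, and 1421896_at was below it on 5. The remaining one, 1421897_at, read 14.7, 20.5 and 22.9 in day 25 controls and 12.01, 15.9 and 2.68 in SRFHKO, and with PE 12.8, 12.5 and 3.04 in controls and 29.03, 23.6 and 17.8 in SRFHKO. PE-treated controls lay below the untreated ones (-1.04 ± 0.48, adjusted p = 0.482) and PE-treated SRFHKO hearts above (1.25 ± 0.48, adjusted p = 0.378). The interaction was 2.29 ± 0.68, with an adjusted p of 0.516. The other tested Elk1 probe set did not repeat this, with an interaction of -0.54 ± 0.90, and the 2 correlated at r = -0.01 over the 18 arrays.

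**Figure D4:**
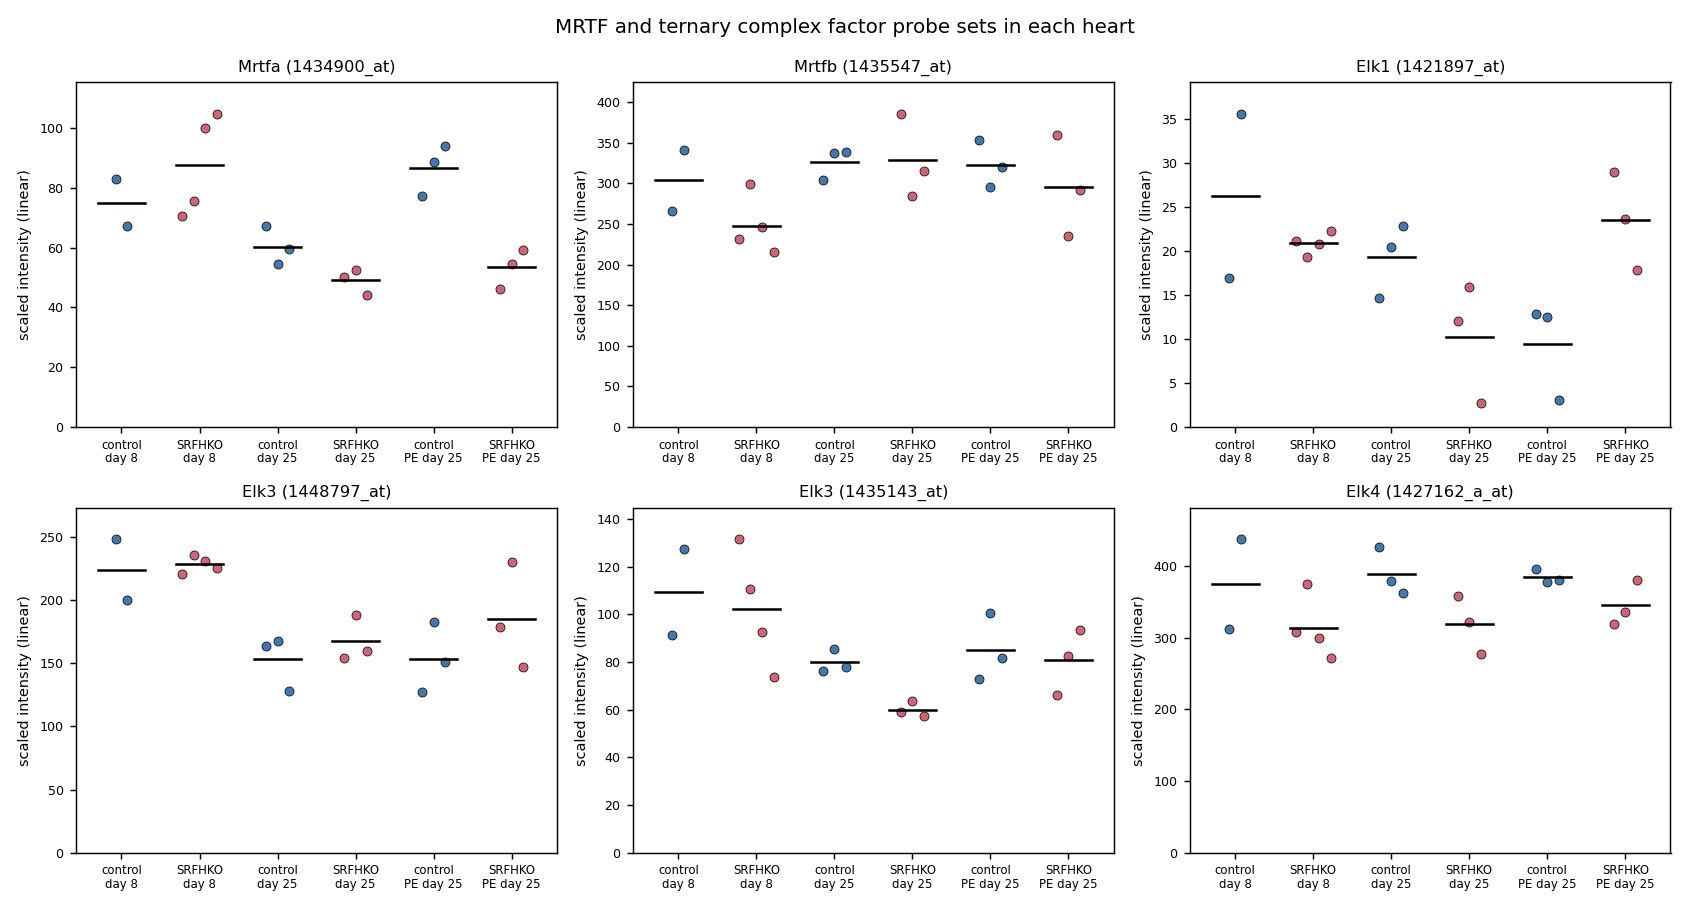
Scaled intensity (linear, y axis from 0) of 6 probe sets of Mrtfa, Mrtfb, Elk1, Elk3 and Elk4 in each of the 18 hearts, by group on the x axis; points are hearts (blue control, red SRFHKO) and bars are group means. Mrtfa shows PE-treated controls (77.5 to 93.9) above PE-treated SRFHKO hearts (46.3 to 59.3), Mrtfb shows no separation of genotypes at day 25, and Elk1 lies near the filter limit of 9.94.

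The genes that feed the cofactors were then read from 1 probe set per gene. Of 12556 genes, 2.22% were called at day 25 without PE, 1.19% with PE, 0.0637% at day 8, 0.0239% for PE in controls and 0.223% for PE in SRFHKO. Upstream of the ternary complex factors, 9 of 16 listed genes of the Ras and MAP kinase pathway were measured. Grb2, the adaptor that links receptor tyrosine kinases to Ras, rose in SRFHKO hearts at day 25 without PE. Its levels were 334.7, 375.4 and 294.3 in controls and 465.6, 505.1 and 431.8 in SRFHKO, without overlap (0.48 ± 0.12, adjusted p = 0.0479). The call was lost in 5 of 6 fits with 1 heart left out, all but the one without control replicate 2, with differences of 0.39 to 0.57. It was 1 of 9 called, and the median of the 9 was 0.15. With PE its difference was 0.33 ± 0.12 (adjusted p = 0.240) and at day 8 also 0.33 ± 0.13 (adjusted p = 0.309). None of the 9 was called in the other 4 comparisons, in which 2 or 3 had an unadjusted p under 0.05 (8.55% to 14.5% of all genes read).

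Other DNA-binding and coregulator partners of SRF gave no call. None of the 19 listed, among them Gata4, Nkx2-5 and Tead1, and none of the 3 measured MEF2 genes, which encode the other MADS-box factors of muscle, was called in any of the 5 comparisons. At an unadjusted p under 0.05 the 19 partners counted 1 at day 8 (8.55% of all genes read), 3 at day 25 without PE (18.2%) and 2 with PE (14.5%). They counted 3 for PE in controls (10.5%) and 3 for PE in SRFHKO (10.7%). The 3 MEF2 genes counted 2 at day 8, 2 for PE in SRFHKO and 0 in each of the other comparisons. In the genotype comparisons at day 8, at day 25 without PE and with PE, the medians of the 19 partners were 0.00, -0.04 and -0.06. The smallest p at day 25 without PE belonged to Smad3, a transducer of TGF-beta signals (-0.45 ± 0.15, adjusted p = 0.120). Mef2c differed by -0.31 ± 0.12 at day 8 (adjusted p = 0.299) and by 0.13 ± 0.12 at day 25 without PE (adjusted p = 0.609).

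Downstream, 18 SRF targets of the myocardin type were listed, mostly actin cytoskeleton and contractile genes. Of these 18, 1 was called at day 8 (0.0637% of all genes read), 2 at day 25 without PE (2.22%) and 1 with PE (1.19%). At an unadjusted p under 0.05 the counts were 6 of 18 at day 8 (8.55% of all genes read), 6 at day 25 without PE (18.2%), 5 with PE (14.5%), 4 for PE in controls (10.5%) and 0 for PE in SRFHKO (10.7%). Acta1, skeletal alpha actin, was the only one of them called lower in SRFHKO, in each of the 3 genotype comparisons. At day 8 it read 1196 and 4057 in controls and 315.9, 597.9, 424.3 and 480.0 in SRFHKO, a difference of -2.31 ± 0.38 (adjusted p = 0.0175). The groups did not overlap, and the 2 controls lay far apart. Without the higher control the difference was -1.43 ± 0.38 and was not called (adjusted p = 0.137), without the lower one it was -3.19 ± 0.38 (adjusted p = 0.000594), and without SRFHKO replicate 1 it was -2.15 ± 0.39 (adjusted p = 0.0667). Some other array measures also separated the genotypes at day 8. The Gapdh 3'/5' ratio was 1.01 to 1.02 in controls and 0.850 to 0.936 in SRFHKO, and the scaled 18S signal 899.4 to 1773 against 204.4 to 362.9. The sum of the 8 fibroblast markers was 8367 to 13283 against 5557 to 8027, and that of the 8 endothelial markers 2124 to 2159 against 2322 to 2610. The Actb 3'/5' ratio (2.07 to 2.52 against 1.52 to 2.12), the trimmed mean (125.0 to 138.0 against 110.2 to 147.7) and the other marker sums overlapped. With the Gapdh ratio as a covariate the Acta1 difference was -1.96 ± 0.59 (adjusted p = 0.301), and the part of the 18S signal and of the fibroblast and endothelial markers was not tested. At day 25 without PE Acta1 read 1276, 895.0 and 1497 in controls and 474.5, 311.2 and 583.7 in SRFHKO, without overlap (-1.43 ± 0.35, adjusted p = 0.0402). That call was lost in 5 of 6 fits with 1 heart left out, all but the one without control replicate 2, with differences of -1.64 to -1.18 over the 6. With PE it read 2112, 2819.9 and 2900.4 in controls and 759.1, 549.5 and 360.3 in SRFHKO, again without overlap (-2.28 ± 0.35, adjusted p = 0.00309), and it was called in all 6 such fits. Brightness, which separated the PE-treated genotypes as well, was also used as a covariate. The Acta1 difference with PE was then -2.09 ± 0.41 (adjusted p = 0.0361 by limma).

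Fhl1, a LIM protein of the sarcomere that is upregulated in hypertrophy, rose at day 25 without PE in SRFHKO hearts. It read 1280, 1938 and 1405 in controls and 2046, 2284 and 2819 in SRFHKO (0.64 ± 0.16, adjusted p = 0.0402). Its call was lost without control replicate 1 or 3 or SRFHKO replicate 2 or 3, with differences of 0.51 to 0.82 over the 6 fits. With the Gapdh ratio as a covariate the differences at day 25 without PE were -1.13 for Acta1 (adjusted p = 0.594), 0.26 for Fhl1 (adjusted p = 0.772) and 0.31 for Grb2 (adjusted p = 0.678), and with brightness -1.18 (adjusted p = 0.310), 0.40 (adjusted p = 0.396) and 0.37 (adjusted p = 0.358). Acta1 and Fhl1 were the calls among the 18 at that point, with a median of -0.23. Of the 18 genes, 14 were in the promoter table, and 8 of these, Acta1 and Fhl1 included, had a CArG box in the window searched, against 1.81% of all genes there. The 18 were listed because they are SRF targets, so this share tests nothing about these hearts.

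Of the 10 listed targets of the ternary complex factor type, 9 were measured and 0 of 9 were called in the 5 comparisons by limma. An unadjusted p under 0.05 was seen for 2 at day 25 without PE (18.2% of all genes read), 2 with PE (14.5%) and 3 for PE in SRFHKO (10.7%). Srf itself is on this list. Fos, an immediate early gene, had the smallest p at day 25 without PE (1.68 ± 0.52, adjusted p = 0.0990), followed by the nuclear receptor gene Nr4a1 (0.89 ± 0.38, adjusted p = 0.225). At day 8 the list had no member at an unadjusted p under 0.05 (8.55% of all genes read), and its median was 0.17. Of its 7 genes in the promoter table, Egr2 and Srf had a CArG box in the window (1.81% of all genes there), which again only describes a list of SRF targets.

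Genes whose log2 levels ran most like those of Srf and Myocd over the 18 arrays were listed as a description. The points share array, day and scaling. For Srf (1418255_s_at) the 5 highest of 12555 genes were Sbf1 (r = 0.81), Ccar1, Cdc5l and Rufy1 (each r = 0.79) and Slc9a8 (r = 0.78). After subtracting the group means these correlations were 0.71, 0.68, 0.60, 0.69 and 0.52. For Myocd (1425978_at) they were Cd36, the fatty acid transporter (r = 0.92), Pfn1, which encodes the actin monomer-binding protein profilin 1 (r = 0.89) and Ube2w, a ubiquitin-conjugating enzyme (r = 0.88), and 0.72, 0.65 and 0.65 after subtracting the group means. The Srf list rested on the scaling, since 2 of its 5 genes remained with quantile normalization and 1 without scaling, as did 1 of the 3 genes of the Myocd list without scaling.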

How the data were processed

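Affymetrix arrays of 18 mouse ventricles were analysed. Trizol RNA was converted to biotinylated cRNA, per the labels' protocols. The deposited values are linear intensity per probe set, made with GCOS per the submitters' processing notes; the version, signal algorithm and scaling target are not given there or in the labels. Trimmed means of the deposited intensity ran from 46.6 to 148, so each array was scaled to a common 2% trimmed mean (90.6). A pseudocount of 2 was added and log2 taken. The 64 control probe sets and those with a mean below the 40th percentile (scaled intensity 9.94) were left out. Scaling assumes that most probe sets are unchanged.

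With limma 3.58.1 in R 4.3.3 (tables were read with data.table, version 1.17.8), lmFit with 1 mean per group over all 18 arrays, contrasts and eBayes with a trend gave two-sided p values, adjusted by Benjamini-Hochberg over 27022 probe sets (threshold 0.05). Day 8 controls (n = 2) borrow the spread of the other groups. With 3 hearts against 3, an exact permutation test of 1 value cannot go below p = 0.1. The number of arrays limits the precision. The steps were also run on simulated data with independent noise per probe set. Those data held no effect of brightness or RNA quality, so that run does not bear on either.

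Gene symbols are those of the platform annotation, brought up to date by gene ID with RefSeq (GRCm38.p6): 34958 probe sets had 1 symbol, 932 several and 9160 none, and the gene ID of 204 was not found. Lists were read from the probe set with the highest mean per gene, without control probe sets. Named were all member probe sets, list genes that passed (at most 4 each way) or else the 1 or 2 with the smallest p, and the 5 and 3 genes most like Srf and Myocd. Members and lists were chosen with earlier results of these data known. A list of other upstream genes is not reported here.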

Additional observations from a re-analysis of the deposited data

Results flagged for a closer look

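For Myocd (1425808_a_at) every PE-treated control lay above the untreated controls, and every PE-treated SRFHKO heart below the untreated SRFHKO hearts. Neither PE difference passed the test by limma (adjusted p = 0.372 and 0.263). The difference between them was -0.94 on the log2 scale and did not pass the threshold by limma (adjusted p = 0.448). On the other Myocd probe set the PE differences had the same signs, with overlap.

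For Elk1 (1421897_at) the PE-treated controls lay below the untreated ones and the PE-treated SRFHKO hearts above, without overlap. Neither PE difference passed the test by limma (adjusted p = 0.482 and 0.378). The difference between them was 2.29, with an adjusted p of 0.516, on a probe set below the filter limit on 2 of the 18 arrays. The other tested Elk1 probe set, 1421896_at, had PE differences of 0.75 and 0.21 and an interaction of -0.54, and the 2 probe sets correlated at r = -0.01 over the 18 arrays. These were the only such cases among the 15 tested member probe sets, each compared for PE, genotype and day.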

How the results depend on the processing

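The count of member probe sets called at day 25 without PE, 2 in the report, was 1 with brightness as a covariate, 1 with 1 probe set per gene (only 1 Myocd probe set is then tested), 1 with eBayes without the trend, 0 with the compared groups alone, 0 with the Gapdh 3'/5' ratio as a covariate (a setting added after seeing the data), and 1 to 2 with any 1 array left out. For the interaction of genotype and day it was 0, and 0 to 1 with an array left out: without SRFHKO day 25 replicate 1, Myocd (1425808_a_at) gave 1.21 (adjusted p = 0.0477). The counts of 0 in the other 5 comparisons stayed at 0 under the settings run. No called difference changed sign; among uncalled ones the sign changed in 21 of 103 fits without scaling, 21 of 1050 under the other planned settings and 77 of 798 with an array left out. Over 13 other settings, chosen for these genes after seeing the data, the call was lost in 4 for Acta1 at day 8, 5 at day 25 without PE and 0 with PE, 6 for Grb2 and 5 for Fhl1, with no change of sign. Without scaling, the median of all probe sets at day 25 without PE moved from -0.04 to 0.35, and the Myocd differences relative to it were 1.07 and 0.84. Over all probe sets the count of calls there, 590, ran from 60 with brightness as a covariate to 2092 without scaling, and from 92 to 749 with an array left out. With a replicate block the count of member calls was also 2 (adjusted p = 0.00958 and 0.0460 for Myocd). Deviations from the group means correlated at r = -0.05 to 0.07 (median 0.013) between same-numbered arrays. For the 94 pairs of other numbers r was -0.07 to 0.06 (median -0.0075), a range that overlaps almost fully. Of 17 arrays, 13 correlated best with an array of their own number. Replicate 2 was also the brightest and replicate 3 the dimmest array in each of the 4 day 25 groups. Arrays of the same number may thus share something that the labels do not state, and what it is was not tested. Levels near the filter limit, as for Elk1, are the least precise.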
